A study of Mus musculus with 46 samples.

Results

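Pklr, Khk, Slc2a2, G6pc, Pck1, Fbp1, Gys2 and Pygl encode the proteins at the main control points of hepatic sugar metabolism, and these 8 genes were described in mouse liver across a lipid-rich diet (LD) and a carbohydrate-rich diet (CD). They were chosen by their role in these pathways and were 8 of the 25494 gene rows of the RNA count table. All animals were male C57BL/6 mice without any transgene, bought at 5 weeks of age, acclimated on chow and then kept for 20 weeks on 1 of the diets. LD supplied 60% of its energy as fat and 20% as carbohydrate, CD supplied 10% as fat and 70% as carbohydrate, and both supplied 20% as protein. Whole liver was assayed by RNA-seq (5 mice per diet), by chromatin immunoprecipitation sequencing (ChIP-seq) of H3K27ac (3 samples per diet), HNF4α (2 per diet) and C/EBPα (2 per diet), and by promoter capture Hi-C (PCHi-C, 2 per diet, pooled). Whether the animals were fed or fasted when the livers were taken is not given in the sources used here.

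The liver takes up glucose through the transporter encoded by Slc2a2, burns it through glycolysis or stores it as glycogen, and in fasting returns glucose to the blood by glycogen breakdown and by gluconeogenesis. The opposing routes share most of their enzymes and differ at a few steps that run in one direction only, and most of the members sit at those steps, while the Slc2a2 carrier moves glucose in either direction and Khk opens a separate route for fructose. Pklr encodes L-type pyruvate kinase, which closes glycolysis, and Khk encodes ketohexokinase. Cytosolic phosphoenolpyruvate carboxykinase (Pck1), fructose-1,6-bisphosphatase (Fbp1) and glucose-6-phosphatase (G6pc) carry gluconeogenesis, and liver glycogen synthase (Gys2) and liver glycogen phosphorylase (Pygl) build and break down glycogen. Transcription of Pklr is a classical target of the carbohydrate response factor ChREBP (gene Mlxipl), and Pck1 and G6pc are classical targets of cAMP signalling, FOXO1 and the coactivator PGC-1α (gene Ppargc1a).

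Of the 8 genes, 2 changed in RNA level, and both were lower on LD, a share close to the 24.9% of all genes tested that were called (11.1% lower on LD). G6pc, the last enzyme of glucose release, was 2.30-fold higher on CD, and Pklr, the last enzyme of glycolysis, was 1.56-fold higher on CD. None of the 8 rose on LD, in edgeR or in DESeq2, and 0 of them were higher on LD at an unadjusted p under 0.05. H3K27ac coverage was lower in every LD sample than in every CD sample around a different set of 3 genes, Fbp1, Gys2 and Pygl (beside 5.92% of all windows), and 2 of the 27 C/EBPα peaks tested, both over coding exons of Gys2, were called lower on LD (beside 3.58% of all peaks tested). Both calls were lost with any sample left out, though the differences stayed negative.

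The promoters shown are those on which the RNA results turned, with one further classical regulated promoter for comparison. They are from RefSeq promoter entries (table of build GRCm38.p6), found for 7 of the 8 members (not Gys2), each matched at a single place to the genome of the files' build (mm9, NCBIM37) and printed up to the first annotated untranslated base. For Pklr the stretch lies at chr3:88940295-88940493 on the + strand, before the start site of the L-type transcript at 88940545. For Pck1 it lies at chr2:172978324-172978548 on the + strand, and for G6pc at chr11:101228780-101228874 on the + strand. Capitals mark matches to motifs that were searched on both strands in the 250 bases before each start site.

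Pklr, L-type promoter: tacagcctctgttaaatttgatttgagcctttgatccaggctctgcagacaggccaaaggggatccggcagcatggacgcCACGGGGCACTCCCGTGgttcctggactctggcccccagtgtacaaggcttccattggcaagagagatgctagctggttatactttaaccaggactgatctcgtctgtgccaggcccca
Pck1: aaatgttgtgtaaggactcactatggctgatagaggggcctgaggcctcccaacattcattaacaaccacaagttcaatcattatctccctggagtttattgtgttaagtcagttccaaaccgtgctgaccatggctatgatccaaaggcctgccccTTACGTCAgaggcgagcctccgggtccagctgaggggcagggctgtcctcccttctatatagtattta
G6pc: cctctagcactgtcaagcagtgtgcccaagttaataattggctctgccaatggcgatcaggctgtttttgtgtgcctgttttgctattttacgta

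The Pklr match reads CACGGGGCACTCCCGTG and spans bases −170 to −154 of the L-type start site. It follows the carbohydrate response element letters CACGNG and CNCGTG with 5 bases between them, the pair of E-box-like sites that ChREBP is known to bind. That pattern occurred in 13 of 32536 RefSeq promoters (0.04%). The Pck1 match reads TTACGTCA, at bases −93 to −86, and follows the cAMP response element-like letters TNACGTCA, which were found in 2.53% of promoters. The HNF4 core letters CAAAGTCCA (0.387% of promoters), the C/EBP letters TTGCNNAA (9.57%) and the forkhead letters TGTTTAC (3.17%) had no match in the promoters of the 7 members, and G6pc had no match to any of the motifs searched. These are letter matches and were not tested as binding sites.

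The RNA-seq libraries held 31707963 to 39012699 counts, and all 8 members were measured far above the low-count filter. Levels are given as CPM, the counts relative to the library size after trimmed mean of M values (TMM) scaling, which compare mice but not genes. To be called, a gene needed both a fitted fold change above 1.2 and an adjusted p under 0.05 (Benjamini-Hochberg, over the 13494 genes tested) in the quasi-likelihood test of edgeR. Of all genes tested, 3357 (24.9%) were called, 13.8% higher on LD and 11.1% higher on CD. The members' 2 calls of 8 were close to that overall share. On the TPM scale, limma's calls numbered 2227 toward LD and 740 toward CD, where edgeR on counts gave 1859 and 1498, a comparison in which both the scale and the test differ. For 18.5% of the genes tested the 2 diets did not overlap, and in 8.35% the LD mice were the lower ones.

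Slc2a2 (chr3:28596825-28627282, + strand in mm9) encodes GLUT2, the glucose transporter of the hepatocyte surface. Its CPM was 441, 389, 418, 475 and 416 in LD mice and 459.6, 483, 505, 435 and 446 in CD mice. The ranges overlapped, with the highest LD mouse above 3 of the 5 CD mice. The means were 428 ± 32.1 and 465.7 ± 28.5 (SD, n = 5), and the log2 fold change, LD minus CD throughout, was −0.12 (SE 0.0737, edgeR adjusted p = 0.241), which did not pass the test.

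Khk (chr5:31223932-31233621, + strand in mm9) encodes ketohexokinase, which phosphorylates fructose and admits it to the triose pool below the regulated steps of glycolysis. Its CPM was 508, 359, 545, 527 and 454 in LD mice and 523, 537, 503, 496 and 575 in CD mice. LD replicate 2 was the lowest of the 10 mice and the other LD mice lay in or near the CD range. The means were 479 ± 75.3 on LD and 527 ± 31.2 on CD (SD, n = 5), with a log2 fold change of −0.14 (SE 0.103, edgeR adjusted p = 0.342). With each mouse left out in turn, the log2 fold change ran from −0.19 to −0.05, so its size depended on single mice.

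Pklr (chr3:88940064-88950516, + strand in mm9) encodes the pyruvate kinase of liver, which turns phosphoenolpyruvate into pyruvate. Its CPM was 340.1, 266, 385, 389.5 and 332 in LD mice and 546, 513, 517, 466.4 and 628 in CD mice. The highest LD mouse lay under the lowest CD mouse. The means were 343 ± 49.9 on LD and 534 ± 59.8 on CD (SD, n = 5), and Pklr fell by 0.64 on the log2 scale (SE 0.108, edgeR adjusted p = 0.000849). The call held when each mouse in turn was left out, with adjusted p from 0.000919 to 0.00288.

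**Figure D1:**
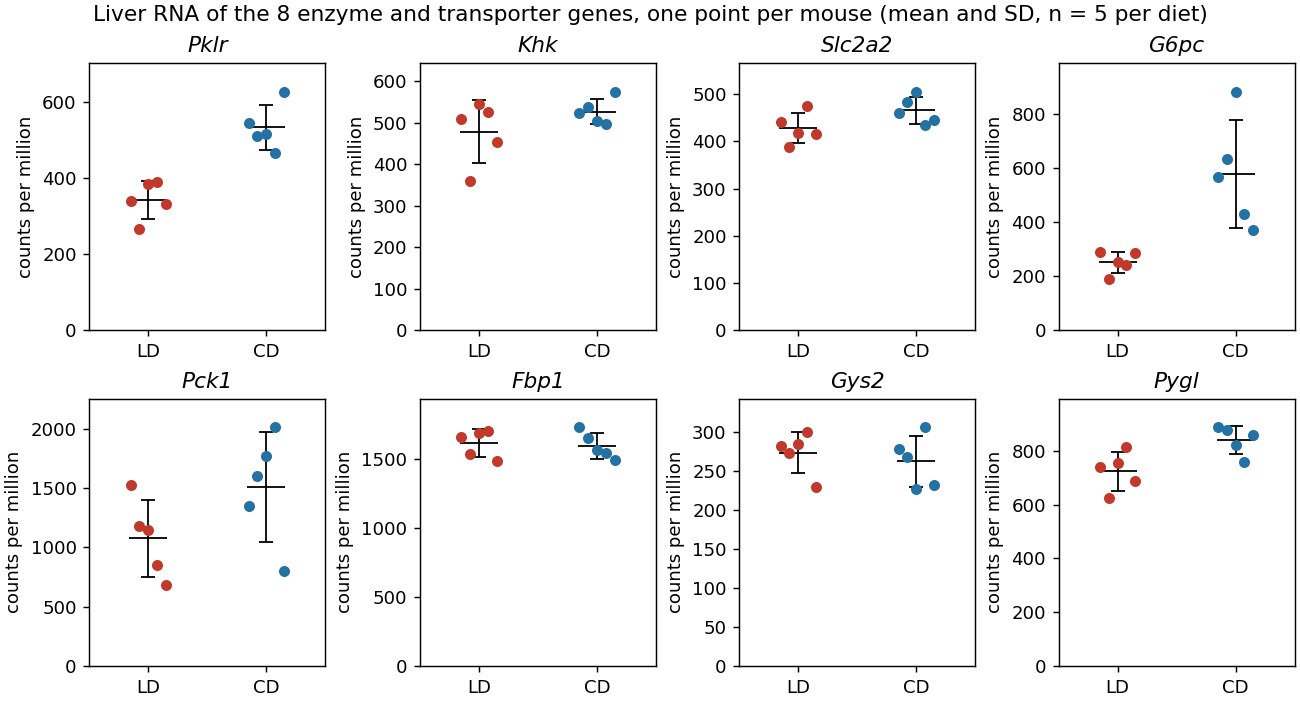
RNA level of each gene in CPM (y axis, from 0) for the 5 LD mice (red) and 5 CD mice (blue), with the mean and SD in black. The diets are apart for Pklr and G6pc and overlap for the other 6 genes.

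G6pc (chr11:101229030-101239217, + strand in mm9) encodes the catalytic subunit of glucose-6-phosphatase in the endoplasmic reticulum, the step that frees glucose from both gluconeogenesis and glycogen breakdown. Its CPM was 289, 190.1, 253, 241 and 286 in LD mice and 567, 633, 884, 432 and 372 in CD mice. No LD mouse reached the lowest CD mouse, and the CD mice spread more widely than the LD mice. The means were 252 ± 40.3 on LD and 578 ± 200.3 on CD (SD, n = 5), and G6pc fell by 1.2 on the log2 scale (SE 0.217, edgeR adjusted p = 0.00244). Leaving out each mouse in turn gave log2 fold changes between −1.32 and −0.99 and adjusted p between 0.00093 and 0.0091.

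Pck1 (chr2:172978574-172984754, + strand in mm9) encodes the cytosolic enzyme that makes phosphoenolpyruvate from oxaloacetate. Its CPM was 1528, 1176, 1144, 854 and 685 in LD mice and 1349, 1605, 1773, 2012 and 803 in CD mice. CD replicate 5 was below 4 of the 5 LD mice, and LD replicate 1 was above 2 CD mice. The means were 1077 ± 324 on LD and 1508 ± 463 on CD (SD, n = 5), with a log2 fold change of −0.49 (SE 0.265, edgeR adjusted p = 0.204). Without CD replicate 5 the log2 fold change was −0.65 and the edgeR adjusted p 0.0455, which passed the call, so that 1 mouse decided on which side of the threshold Pck1 fell. Over all the alternatives tried, the adjusted p ran from 0.0455 to 0.499.

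Fbp1 (chr13:62966113-62989642, − strand in mm9) encodes fructose-1,6-bisphosphatase, which opposes phosphofructokinase. Its CPM was 1657, 1532, 1688, 1700.2 and 1479 in LD mice and 1726, 1646, 1558, 1537 and 1490.1 in CD mice. The diets overlapped across nearly the whole range. The means were 1611 ± 99.5 and 1591 ± 94.0 (SD, n = 5), and the log2 fold change was 0.02 (SE 0.0734, edgeR adjusted p = 0.882).

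Gys2 (chr6:142371133-142421629, − strand in mm9) encodes the glycogen synthase isoform of liver. Its CPM was 282, 274, 284, 299.6 and 229 in LD mice and 278, 268, 227, 306 and 232 in CD mice. Both the highest and the lowest mouse were on CD. The means were 274 ± 26.6 and 262 ± 32.9 (SD, n = 5), with a log2 fold change of 0.06 (SE 0.0958, edgeR adjusted p = 0.677).

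Pygl (chr12:71291802-71328670, − strand in mm9) encodes the liver isoform of glycogen phosphorylase, which releases glucose 1-phosphate. Its CPM was 741, 623, 754, 814 and 688 in LD mice and 887, 876, 822, 757 and 857 in CD mice. LD replicate 4 lay above CD replicate 4, and all other LD mice were below all CD mice. The means were 724 ± 72.3 on LD and 839.9 ± 52.4 on CD (SD, n = 5), with a log2 fold change of −0.21 (SE 0.0826, edgeR adjusted p = 0.0687). The adjusted p was 0.0304 with DESeq2 and 0.0351 in edgeR without LD replicate 4, but the fold change under DESeq2 stayed below 1.2.

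Between genes, levels were compared in the deposited TPM values, which are scaled by gene length. The header of 1 of the 5 CD columns carries a replicate number that no sample has, so it was taken as a CD sample only. On CD the order of the mean levels was Fbp1 (1931 ± 89.3 TPM, SD, n = 5), Pck1 (1039 ± 335), Khk (595 ± 38.0), Pygl (534 ± 28.7), G6pc (459.8 ± 163), Pklr (342 ± 36.1), Slc2a2 (326 ± 24.2) and Gys2 (177 ± 22.9). Within this order each neighbouring pair from Khk to Slc2a2 overlapped within 1 SD, while Fbp1, Pck1 and Gys2 stood apart. On LD the order was Fbp1 (2062 ± 88.0 TPM), Pck1 (777 ± 226), Khk (570.2 ± 88.0), Pygl (486 ± 44.4), Slc2a2 (315 ± 22.7), Pklr (232 ± 32.8), G6pc (212 ± 41.3) and Gys2 (195 ± 10.7). G6pc stood above Pklr and Slc2a2 on CD and below both on LD, and on LD the neighbours Pck1, Khk and Pygl, and Pklr, G6pc and Gys2, overlapped within 1 SD.

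Mouse-to-mouse variation within a diet was described by correlating log2 CPM after the diet mean had been subtracted, over the 10 mice. The highest values among pairs of members were those of Pklr and Khk (Pearson r = 0.915), Khk and Pygl (0.85) and Pklr and Pygl (0.85), and the lowest was that of Pklr and Pck1 (−0.52). Among the 7802 genes with a mean of at least 10 CPM, the closest to Pklr were BC026585 (0.96), C030006K11Rik (0.95) and Tmub2 (0.95), and the closest to Khk were the glycolytic gene Gapdh (0.92), Pklr (0.91) and C030006K11Rik (0.91). G6pc was closest to Lrrc16a (0.96), Csnk1g3 (0.95) and Shb (0.93), and Pck1 to Scarb2 (0.94), Uvrag (0.93) and Spin1 (0.92). For Slc2a2 they were Nbas (0.98), Kpna6 (0.95) and Shroom1 (0.94), and for Fbp1 Smlr1 (0.92), Mrpl39 (0.91) and Sephs2 (0.90). For Gys2 they were Osbpl1a (0.95), Ufd1l (0.94) and Angel2 (0.92), and for Pygl Pi4k2a (0.96), Carhsp1 (0.96) and Bola3 (0.95). Each was picked as among the highest of 7802 genes over only 10 mice. Whether such values exceed those that a search of this size gives by chance was not tested.

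The other genes of the same pathways were taken from lists made by role. Of the 23 other glycolytic genes tested, 8 rose on LD and none fell (0 lower at an unadjusted p under 0.05, and none in DESeq2), beside 13.8% and 11.1% of all genes, and the list's median log2 fold change was 0.23 against −0.002 over all genes tested. Those that rose included the muscle-type hexokinase Hk2 (1.47, edgeR adjusted p = 6.37e-05), the pyruvate dehydrogenase kinase Pdk4 (1.1, adjusted p = 0.012), the other pyruvate kinase gene Pkm (0.80, adjusted p = 0.00129) and the lactate dehydrogenase subunit gene Ldha (0.54, adjusted p = 0.000279). Pklr and Pkm thus moved in opposite directions. Pkm CPM was 39.2, 62.0, 40.5, 42.0 and 38.2 in LD mice and 30.6, 27.7, 23.1, 22 and 24.3 in CD mice, without overlap.

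The hexokinase genes Hk1 (0.28) and Hk3 (0.45) were not called, nor was the regulator gene Gckr (−0.05). The enolase gene Eno1 has a near-identical copy that could share its reads, so its value is uncertain.

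Of the 10 other gluconeogenic genes tested, 1 rose and 2 fell on LD (median 0.09 on the log2 scale). Among all genes tested, 13.8% rose and 11.1% fell. The mitochondrial pyruvate carrier gene Mpc1 rose (0.65, edgeR adjusted p = 3.48e-05). The cytosolic aspartate aminotransferase gene Got1 fell by 0.71 on the log2 scale (adjusted p = 0.0181), and Slc37a4, the transporter that feeds glucose 6-phosphate to the G6pc enzyme, fell by 0.29 (adjusted p = 0.0377). The Slc37a4 call was lost on the TPM scale (limma adjusted p = 0.072 on log2(TPM + 1)) and in 8 of the 10 fits that left out a mouse (0.0522 to 0.0913), all but those without LD replicate 1 or CD replicate 4. The counterparts Pck2 (0.09), Pcx (0.18) and G6pc3 (0.10) were not called, and Fbp2 had too few counts to be tested.

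Of the 20 other glycogen genes, 4 rose and 1 fell on LD, with a median of 0.03. These 5 called of 20 were close to the 24.9% of all genes tested that were called (13.8% higher and 11.1% lower on LD). The phosphoglucomutase row Pgm1, which RefSeq now names Pgm2 and which was low (8.24 ± 0.783 CPM on LD, 5.17 ± 0.533 on CD, SD, n = 5; 0.67, edgeR adjusted p = 0.000651), the glycogenin gene Gyg (0.42, adjusted p = 0.00444), the brain-type phosphorylase gene Pygb (0.41, adjusted p = 0.0467) and the branching enzyme gene Gbe1 (0.35) rose. The far more abundant phosphoglucomutase row Pgm2, now named Pgm1, was not called (319 ± 32.6 and 279.9 ± 10.1 CPM, 0.19, adjusted p = 0.079). Ppp1r3c, which encodes a subunit that targets protein phosphatase 1 to glycogen, fell by 0.95 on the log2 scale (SE 0.285, adjusted p = 0.0335). The Ppp1r3c call was lost on the TPM scale (limma adjusted p = 0.058), under the replicate block (0.145), without the count filter (0.0609) and without LD replicate 1, 2 or 3 or CD replicate 1 or 2 (0.0641 to 0.0799), and that of Pygb without LD replicate 2, 4 or 5 or CD replicate 3, 4 or 5 (0.0678 to 0.109). The other isozymes Gys1 (0.35) and Pygm (0.36) were not called. Of the 5 other fructose genes tested, the transporter genes Slc2a5 and Slc2a8 fell by 0.59 (adjusted p = 0.0216) and 0.33 (adjusted p = 0.0278), with the call of Slc2a8 lost on the TPM scale (limma adjusted p = 0.062) and without LD replicate 2 or 5 or CD replicate 3 or 5 (0.0617 to 0.0679) and that of Slc2a5 without LD replicate 5 (0.0524) or CD replicate 4 (0.0568). The 2 transporter genes called lower, of 5 fructose genes tested, stood beside 11.1% of all genes called lower on LD. None rose in edgeR or DESeq2 (2 higher at an unadjusted p under 0.05), while the triokinase gene Tkfc (0.23), which acts further along the fructose pathway than Khk, was not called.

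Of 7 regulator genes, 3 fell on LD and none rose (4 and none in DESeq2, and 0 higher on LD at an unadjusted p under 0.05). Among all genes tested, 11.1% fell and 13.8% rose in edgeR. Mlxipl, which encodes ChREBP, had a CPM of 43.8, 32.1, 42.1, 40.4 and 41.5 in LD mice and 73.8, 79.6, 87.3, 94.3 and 81.9 in CD mice. The groups were far apart, and Mlxipl fell by 1.06 on the log2 scale (SE 0.0895, edgeR adjusted p = 8.57e-06). Ppargc1a fell by 0.73 (SE 0.119, adjusted p = 0.000701) and Foxo1 by 0.43 (SE 0.119, adjusted p = 0.0152, but 0.088 in limma on log2(TPM + 1)). The genes of both immunoprecipitated factors had an edgeR adjusted p under 0.05 and lay at the 1.2-fold limit, with a log2 fold change of −0.26 for Hnf4a (1.196-fold higher on CD, adjusted p = 0.0176) and −0.26 for Cebpa (1.198-fold, adjusted p = 0.0202). Cebpa is the further regulator that DESeq2 called (−0.26, DESeq2 adjusted p = 0.00262), while Hnf4a stayed below the limit there too (−0.26, DESeq2 adjusted p = 0.00112).

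**Figure D2:**
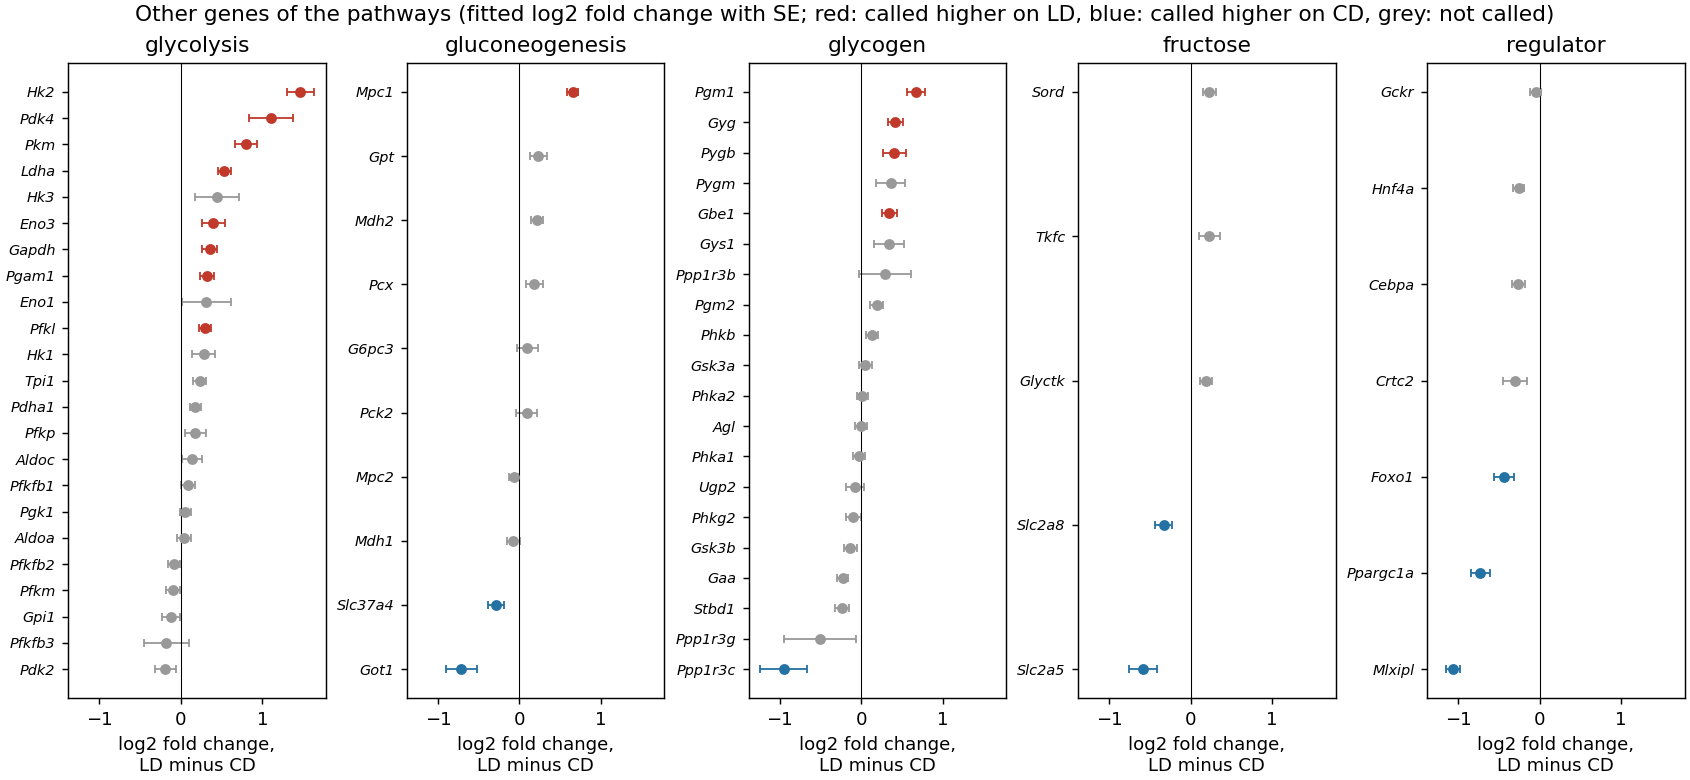
Fitted log2 fold change, LD minus CD (x axis, with SE), of each tested gene of the 5 lists made by role, members left out. Genes called higher on LD are red, genes called higher on CD blue and genes not called grey, and the 8 called glycolytic genes all lie right of 0 while the 3 called regulators all lie left of it.

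Markers of hepatocytes summed to between 75842 and 94608 CPM on LD and between 78657 and 94930 CPM on CD, with 1 of 4 called lower on LD. Macrophage markers summed to 325 to 922 CPM on LD and 315 to 591 CPM on CD, and lymphocyte markers to 28.1 to 67.4 and 22 to 29.1 CPM, with 1 of 5 called higher on LD in each list. Endothelial markers (288 to 408 and 327 to 399.99 CPM, 1 of 4 called higher on LD), stellate cell markers (265 to 456 and 321 to 417 CPM, 1 of 5 called higher on LD, 2 in DESeq2 and 3 at an unadjusted p under 0.05) and cholangiocyte markers (2.17 to 7.21 and 3.62 to 6.97 CPM, 0 of 4 called by edgeR or DESeq2 and 1 at an unadjusted p under 0.05) overlapped in sum between diets, and adipocyte and muscle markers were at most 0.363 CPM in sum. The called markers of cells other than hepatocytes were Cd68 (0.96), Ptprc (0.69), Lyve1 (0.90) and Col1a1, which was at 37.1 ± 11.7 CPM on LD and 12.2 ± 3.19 on CD (SD, n = 5) without overlap (1.60, edgeR adjusted p = 0.000841), while Reln made up most of the stellate sum (257 and 268 CPM). In bulk liver, fewer cells of a type and less RNA per cell cannot be told apart, and the part of cell composition in the changes of Pklr, G6pc and the pathway genes that rose on LD, Pkm and Hk2 included, was not tested.

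H3K27ac marks active promoters and enhancers. The deposited peaks are intervals without heights, so the share of each gene with 20 kb on either side that lay under a peak was compared. A peak lay within 500 bp of the start site of each of the 8 genes in 6 of 6 samples. The members' windows held more peak sequence than most, with mean coverage from percentile 67.3 (Gys2) to percentile 99.1 (Khk) of the genes tested. With 3 samples against 3, the exact two-sided permutation test cannot give a p below 0.1. For 5.92% of the 13305 windows with a peak, every LD sample was below every CD sample, and for 22.0% every LD sample was above. The LD samples had more peak sequence genome-wide, 149.8 to 160.4 Mb against 139.7 to 145.4 Mb on CD.

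Around Fbp1 the coverage was 52.0%, 49.5% and 47.9% in LD samples and 59.6%, 58.0% and 61.1% in CD samples. Every LD sample was lower, with means of 49.8% ± 2.06 and 59.6% ± 1.57 (SD, n = 3) and an exact permutation p of 0.1, the smallest possible. Most of this lay in the peak region over the gene and its start site (chr13:62958800-62996199), of which 31200, 29400 and 27000 bp were covered on LD and 33800, 34200 and 34800 bp on CD.

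Around Gys2 the coverage was 21.4%, 20.6% and 15.5% in LD samples and 25.4%, 28.7% and 30.3% in CD samples. Every LD sample was again lower, with means of 19.2% ± 3.22 and 28.1% ± 2.48 (SD, n = 3, exact permutation p = 0.1). The region at the Gys2 start site had similar widths on both diets (7000, 7000 and 7800 bp on LD, 7200, 7000 and 7200 bp on CD). The separation lay in a region inside the gene (chr6:142396600-142415399), of which 12400, 11600 and 6200 bp were covered on LD and 15800, 18000 and 17200 bp on CD.

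Around Pygl the coverage was 38.5%, 31.5% and 30.4% in LD samples and 42.1%, 44.5% and 44.2% in CD samples. No LD sample reached the CD range, and the means were 33.5% ± 4.39 and 43.6% ± 1.28 (SD, n = 3, exact permutation p = 0.1). These 3 of 8 genes with LD below CD stood beside 5.92% of all windows, and none of the 3 was called in RNA.

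Pklr and G6pc, which fell in RNA, had overlapping coverage. The Pklr window was covered to 38.8%, 24% and 26% in LD samples and to 38.3%, 36.9% and 38.7% in CD samples (exact permutation p = 0.4), with LD replicate 1 at the level of the CD samples and the other LD samples lower. The peak region over the Pklr start site followed the same pattern, with 16400, 9400 and 10400 bp covered on LD and 16600, 16400 and 17000 bp on CD. The G6pc window was covered to 68.1%, 71.3% and 64.6% in LD samples and to 69.7%, 72.5% and 69.3% in CD samples (exact permutation p = 0.4). Khk (67.0% to 75% on LD, 68.6% to 70.5% on CD), Slc2a2 (63.9% to 64.7% and 63.0% to 66.1%) and Pck1 (60.6% to 64.1% and 57.6% to 65.8%) also overlapped. The Khk window held the start sites of 4 other genes and the Pklr window those of 3, so their coverage is not that of 1 gene alone. The windows of Fbp1 (Fbp2), Gys2 (Spx) and Pygl (F730035M05Rik) each held the start site of 1 other gene, at most 0.205 CPM on a diet.

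**Figure D3:**
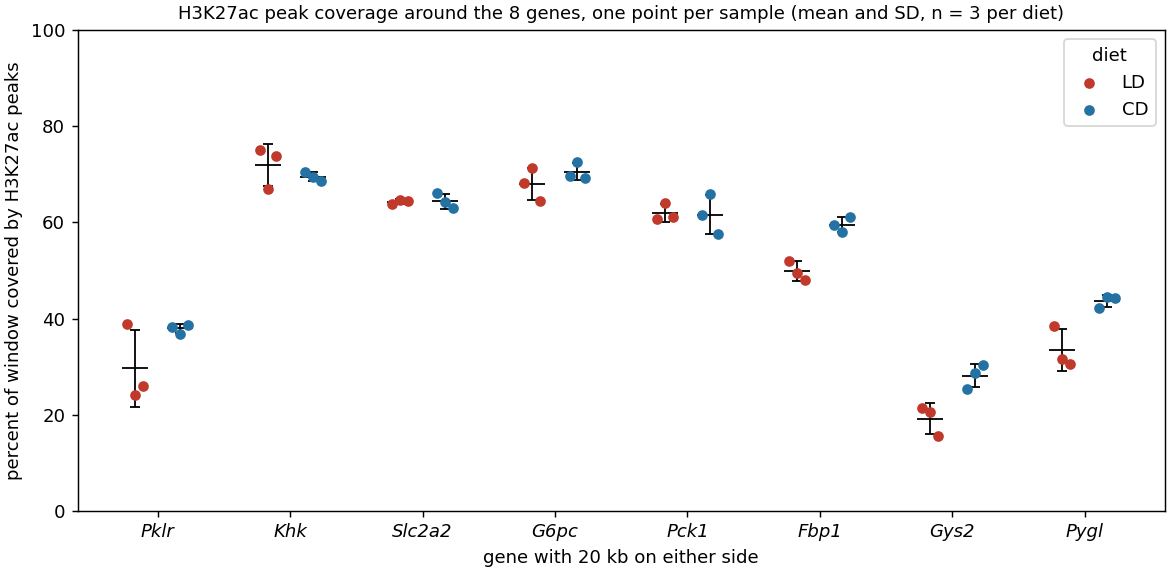
Percent of each gene with 20 kb on either side covered by H3K27ac peaks (y axis, 0 to 100) in the 3 LD (red) and 3 CD (blue) samples, with the mean and SD in black. The LD points lie wholly below the CD points for Fbp1, Gys2 and Pygl, and for Pklr 1 LD sample lies with the CD samples.

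HNF4α is a nuclear receptor that maintains the hepatocyte program and is known to bind the promoters of many metabolic genes. Within 20 kb of the members, 68 HNF4α peak loci were found, from 5 at Pklr to 11 each at Khk and Slc2a2, and 33 of them (48.5%) had a peak in all 4 samples, beside 33.0% of all 70756 loci. A locus is a set of peaks of different samples that overlap by at least 1 bp, and heights are tags scaled to a library of 10000000 tags. Each member had a locus with its centre within 500 bp of its start site, and the highest member loci were among the highest of the genome. The Gys2 start-site locus (chr6:142421532-142421756) had heights of 241 and 221 on LD and 174 and 363 on CD and exceeded 99.9% of all loci by its highest value. The G6pc locus (chr11:101228652-101229036, over the 5′ untranslated region) reached 176, 159, 150.2 and 293 and the Pck1 locus (chr2:172978151-172978384, upstream) 164, 149.5, 105 and 273 in LD replicates 1 and 2 and CD replicates 1 and 2.

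In these 3 loci the CD samples lay on either side of the LD samples. The median height over loci found in all samples was 35.8 and 33.5 in the LD samples but 21.5 and 42.8 in the CD samples, so heights were centred on each sample's median on the log2 scale before limma was applied. None of the 33 member loci was called at an adjusted p under 0.05 by limma, beside 0.227% of the 23344 loci called higher on LD and 0.0471% higher on CD. At an unadjusted p under 0.05, 6 of the 33 passed, beside 20.4% of all loci, which is no more than the overall share. An edgeR test on whole tags, added after the data were seen, called 2 member loci, both lower on LD, beside 2.63% of all loci called higher on CD and 4.12% called higher on LD. The median member log2 difference was −0.30 against −0.04 over all loci, and 24 of 33 were negative beside 54.4% of all, though loci of 1 gene are not independent. With a sample left out, the member median ran from −0.32 to −0.12 and that of all loci from −0.05 to −0.03. The member median was smallest in size without CD replicate 1 (−0.12) and next without LD replicate 2 (−0.19).

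The locus over the Fbp1 start site (chr13:62989504-62989740) had heights of 56.2 and 52.2 on LD and 61 and 123.8 on CD. It was the one of the 33 loci at which both LD samples were below both CD samples (2.62% of all loci, while none of the 33 had both above, beside 16.6%), with a log2 difference of −0.87 (SE 0.189, limma adjusted p = 0.0817, edgeR on tags adjusted p = 0.00706). The G6pc start-site locus gave −0.52 (SE 0.189, limma adjusted p = 0.191, edgeR on tags adjusted p = 0.0322). At Pklr the locus 313 bp downstream of the files' start site, which covers the carbohydrate response element letters printed above, had heights of 82.5 and 74.5 on LD and 41.5 and 89 on CD (0.18, SE 0.191, limma adjusted p = 0.634). The diets overlapped there, as at Khk (67.8 and 55.5 on LD, 34.5 and 59 on CD, 160 bp upstream) and at the Slc2a2 start site, where LD replicate 2 had no peak and the others 27.5 to 32. Pygl had a start-site locus with a peak in 1 sample of each diet (24.2 and 30.2, percentile 71.5 of all loci by its highest value). A higher Pygl locus lay 6164 bp upstream (141.5 and 109.5 on LD, 78.2 and 161 on CD). The highest loci of Khk (3930 bp into the gene, up to 174) and Slc2a2 (16528 bp into it, up to 169.8) were intronic.

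By presence alone, of the 57 member loci that were found in 2 or more samples, 1 had a peak in both LD samples and no CD sample (7.49% of all loci) and 2 had a peak in both CD samples and no LD sample (3.96%).

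C/EBPα is a leucine zipper factor of differentiated hepatocytes and a known regulator of gluconeogenic and glycogen genes. Its peaks formed 66 loci within 20 kb of the members, from 3 at Pklr to 12 at Slc2a2, of which 27 (40.9%) were in all 4 samples beside 14.2% of all 97466 loci. Limma called 2 of the 27, both lower on LD and both inside Gys2, beside 3.58% of the 13813 loci called higher on CD and 6.18% called higher on LD. At an unadjusted p under 0.05, 6 of the 27 passed, beside 29.2% of all loci. In edgeR on whole tags, 2 member loci were called lower on LD, the same ones inside Gys2, and 2 higher on LD, beside 7.26% of all loci called higher on CD and 11.1% called higher on LD. The median member log2 difference was −0.12 and that of all loci −0.10. This closeness depended on the samples used. The member median was −0.29 without LD replicate 1, −0.08 without LD replicate 2, −0.23 without CD replicate 1 and −0.17 without CD replicate 2. That of all loci was −0.13 to −0.08 in these fits. By presence, 3 of 48 member loci had peaks in both LD samples alone (15.3% of all), 520 bp upstream of Gys2 (24.5 and 25), 3690 bp into Khk (16 and 18.5) and downstream of Pygl (11.5 and 11.5). The one with peaks in both CD samples alone (5.22%) lay downstream of Pck1 (9.5 and 14).

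The first called locus (chr6:142407893-142408207, 13579 bp into Gys2, over coding exon 4) had heights of 24 and 41 on LD and 104.5 and 78 on CD, and it was the highest C/EBPα locus at Gys2. Both CD samples were above both LD samples, and the log2 difference was −1.22 (SE 0.281, limma adjusted p = 0.0232, edgeR on tags adjusted p = 9.81e-05). The second (chr6:142399887-142400221, 21575 bp into Gys2, over coding exon 8) had heights of 12 and 15 on LD and 40.5 and 25 on CD, again without overlap (−0.94, SE 0.245, limma adjusted p = 0.0371, edgeR on tags adjusted p = 0.0474). With any 1 of the 4 samples left out, the log2 difference was −1.56 to −0.87 for the first and −1.06 to −0.82 for the second, and both calls were lost (limma adjusted p of 0.0528 to 0.147 and 0.13 to 0.157), in fits where the lone sample of a diet is assumed to vary like the pair. Without LD replicate 1 or LD replicate 2, 0 of all 13813 loci were called, so these fits do not single out the Gys2 loci (3236 and 2991 loci had an unadjusted p under 0.05). Both loci lie in the region inside Gys2 where H3K27ac coverage was lower on LD. Other Gys2 loci went the other way, since the one 520 bp upstream of the start site had peaks on LD alone and the one 17155 bp upstream had heights of 14 and 9 on LD and 6.5 and 10.5 on CD (0.75, SE 0.39, limma adjusted p = 0.225). Gys2 RNA did not pass the test, as given above.

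The central 200 bases of both loci are shown because they carry the factor differences that limma called at the members. They are read from NCBIM37 on the − strand, the coding strand of Gys2, at chr6:142407951-142408150 and chr6:142399955-142400154. Capitals mark matches to the C/EBP letters (TTGCCCAA and TTGCCTAA), to the forkhead letters in reverse complement (GTAAACA) and to the cAMP response element-like letters (TAACGTCA).

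Gys2, exon 4 locus: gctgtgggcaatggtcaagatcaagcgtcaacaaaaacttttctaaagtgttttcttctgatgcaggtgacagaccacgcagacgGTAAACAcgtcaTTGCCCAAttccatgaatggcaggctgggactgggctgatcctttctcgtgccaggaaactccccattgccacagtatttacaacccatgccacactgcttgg
Gys2, exon 8 locus: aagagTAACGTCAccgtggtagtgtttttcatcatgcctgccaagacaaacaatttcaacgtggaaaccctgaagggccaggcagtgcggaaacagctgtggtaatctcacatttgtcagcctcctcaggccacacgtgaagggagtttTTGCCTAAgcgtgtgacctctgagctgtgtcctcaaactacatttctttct

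In the exon 4 locus the C/EBP and forkhead letters both lie within the coding exon, and the C/EBP letters lie at the locus centre. In the exon 8 locus the C/EBP letters lie outside the exon and the cAMP response element-like letters inside it. The C/EBP letters were present in 18 of the 66 member loci and in 25.02% of all C/EBPα loci on the 7 chromosomes that hold the members, measured over 200 bases each.

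At the other members no C/EBPα locus passed limma's test on centred heights. The locus closest to the threshold lay 16576 bp upstream of G6pc, with 11 and 12.5 on LD and 26.5 and 29.5 on CD (−0.95, SE 0.286, limma adjusted p = 0.0591). This locus was called lower on LD without centring (adjusted p = 0.0427), under the replicate block (0.0444) and without CD replicate 1 (0.0332), but not in edgeR on tags (0.0568), and its adjusted p was 0.204 to 0.38 without each of the other samples. A neighbouring locus, 15065 bp upstream of G6pc, differed in the other direction (30.5 and 39 on LD, 34.5 and 21 on CD), at 0.67 (SE 0.247, limma adjusted p = 0.105, edgeR on tags adjusted p = 0.0443). In an intron of Pygl a locus was higher in both LD samples (37.5 and 40.5) than in both CD samples (27 and 31), at 0.74 (SE 0.291, limma adjusted p = 0.122, edgeR on tags adjusted p = 0.0229). At G6pc the highest locus (chr11:101240381-101240712, downstream of the gene) had heights of 76.5 and 86 on LD and 173 and 110.5 on CD (−0.46, SE 0.24, limma adjusted p = 0.224). By height before centring, both LD samples were below both CD samples at 14 of the 27 loci, beside 46.4% of all loci, and above them at 1, beside 8.35%. The 14 included the loci at the Fbp1 start site (16 and 17 against 38 and 25), 20063 bp upstream of Fbp1 (54 and 73 against 127 and 99), 292 bp upstream of Pck1 (62.5 and 79 against 99 and 94.0) and 6125 bp upstream of Pygl (101.5 and 103 against 194 and 136). Over the loci shared by all samples, the LD samples had median heights of 24 and 25.5, CD replicate 2 had 25 and CD replicate 1 had 37.5, which was the highest. The locus 374 bp from the Pklr start site had heights of 15 and 13.5 on LD and 25 and 14 on CD, at percentile 86.1 of all loci by its highest value. The highest loci of Khk (53 and 41 on LD, 68 and 39 on CD) and Slc2a2 (31 and 26.5 on LD, 42.5 and 29.5 on CD) lay upstream and overlapped between diets. The loci nearest the start sites of Slc2a2, Gys2 and Pygl had a peak in 1 sample each, and that of G6pc in 3 samples (15.5, 24.5 and 22.5, none in CD replicate 2).

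**Figure D4:**
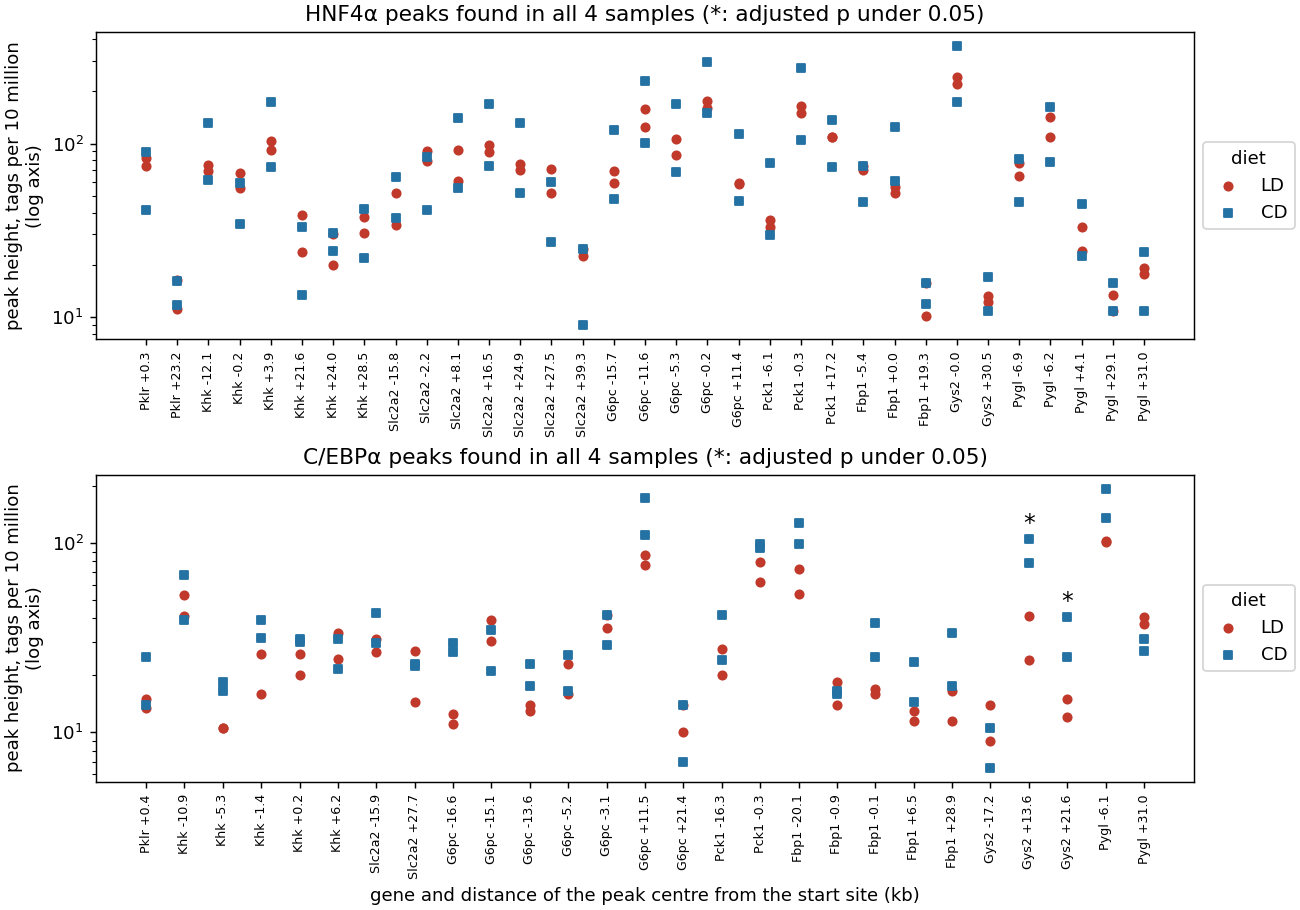
Height of each HNF4α (top) and C/EBPα (bottom) peak locus found in all 4 samples near the members, in scaled tags on a log axis, against the gene and the distance of the locus centre from its start site (x axis). Red circles are the LD samples and blue squares the CD samples, not centred, and the 2 starred C/EBPα loci of Gys2 are those with an adjusted p under 0.05 in limma.

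PCHi-C ligates DNA ends that lie close in the nucleus and enriches those that include a promoter fragment. The lists hold interactions of HindIII fragments up to 1 Mb apart with a CHiCAGO score of at least 5, made on pooled replicates, so that there is no replicate check and no test. The fragments with the start sites of 5 members had 74 listed interactions, 59 on each diet, of which 44 (59.5%) were listed on both diets, beside 53.8% of all 195691. Listed on LD only were 15 and on CD only 15, and for all interactions these shares were 23.5% and 22.7%. All 7 member interactions with a score of at least 10 on a diet were listed on both, beside 97.5% of all such interactions. No interaction listed on 1 diet alone scored above 8.62.

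The Pklr fragment had 13 interactions on LD and 14 on CD, 10 of them shared, and every other end was itself a captured promoter fragment. At the other members this held for 3 of 34 other ends at Fbp1, 1 of 12 at Pck1 and none at Khk and Gys2. The reason for this difference was not tested. The strongest were with the fragment of Rusc1, 40.1 kb upstream (score 15.28 on LD, 17.1 on CD), of Hcn3 and Clk2, 26.9 kb downstream (11.02 and 9.45), and of Efna1, 145 kb downstream (10.2 and 11.21). The Fbp1 fragment had the most, 28 on LD and 27 on CD with 21 shared, and its captured bait is named for another transcript (Gm17367) and not for Fbp1. Most of them lay in a cluster more than 350 kb upstream, with the highest scores at 444 kb (13.7 on LD, 8.69 on CD), 471 kb (12.72 and 11.07) and 442 kb (10.26 and 12.06).

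Pck1 had 10 interactions on LD and 8 on CD, 6 of them shared, with its highest scores 411 kb (8.29 and 9.3) and 399 kb (7.18 and 8.58) downstream. Gys2 had 6 on LD and 8 on CD, 5 of them shared, all between 255 and 277 kb upstream, the highest at 265 kb (9.81 and 9.98) and 267 kb (7.24 and 9.55). The Khk fragment, which also holds the starts of Emilin1 and Ost4 and whose bait is named for Ost4, had 2 low-scoring interactions (5.36 and 5.5, 5.96 and 5.04), both listed on both diets. No listed fragment on either diet held the start site of Slc2a2, G6pc or Pygl, whose HindIII fragments are 5610, 17656 and 1180 bp long. No bait in the lists was named for any of these genes, so whether their promoters were captured cannot be told from the lists. Other promoters had 7 interactions on LD and 9 on CD that ended in the G6pc window. Of the 74 other ends, 37 overlapped an H3K27ac peak in all 6 samples and 31 in none, and 12 overlapped an HNF4α and 10 a C/EBPα peak in all 4 samples.

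**Figure D5:**
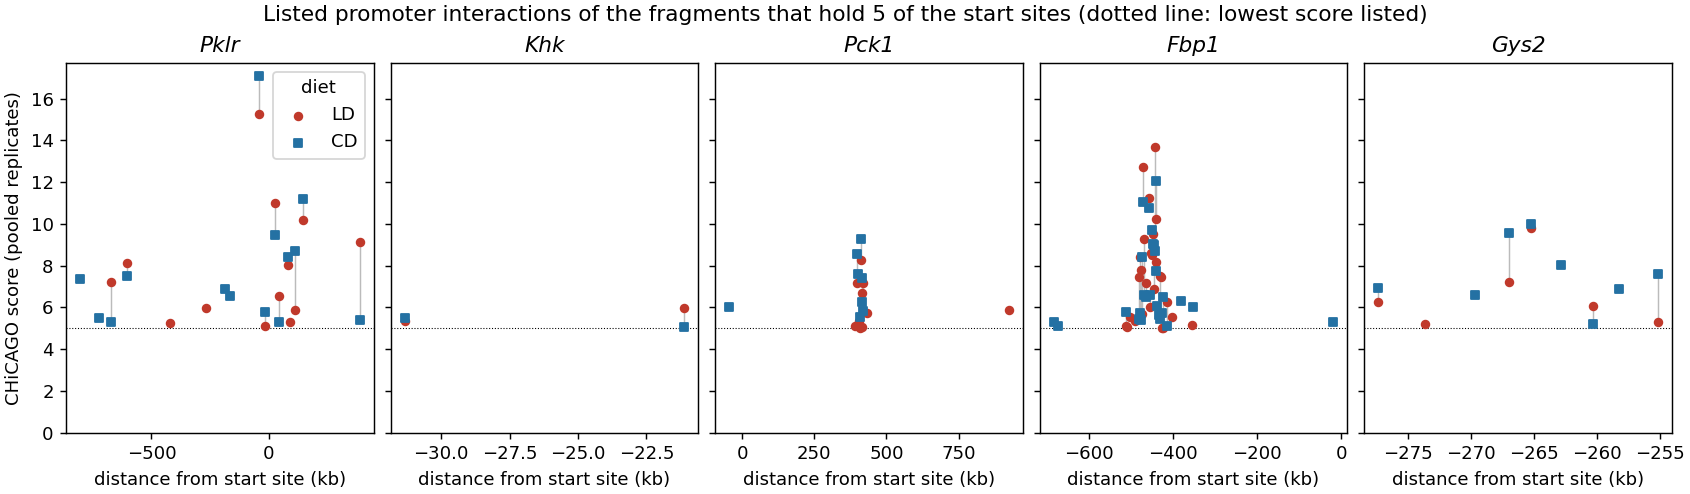
CHiCAGO score (y axis, pooled replicates) of each listed interaction of the 5 member fragments against the distance of the other end from the start site in kb (x axis, negative upstream), with LD as red circles, CD as blue squares and grey lines joining the scores of 1 interaction. The Fbp1, Pck1 and Gys2 interactions cluster far from the start sites on both diets, and the dotted line marks the lowest score listed, 5.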

How the data were processed

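The deposited gene counts were read pairs that the authors mapped to mm9 with STAR 2.5 and counted by strand with featureCounts 1.5.0-p1, and the deposited TPM values were scaled by the authors by gene length. For H3K27ac the authors deposited SICER peak intervals per sample, and for HNF4α and C/EBPα they deposited HOMER peaks per sample whose height signal is tags scaled to a library of 10000000, beside whole tag counts (reads mapped with Bowtie 0.12.8, duplicates removed with Picard 1.110, per the labels and methods). PCHi-C lists hold the authors' CHiCAGO score on pooled replicates. The authors' own fold changes, p-values and domain calls, the inputs and the Hi-C matrices were not used here.

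Counts were tested in edgeR 4.0.16 (R 4.3.3; TMM, filterByExpr, robust quasi-likelihood fit, no covariate), with DESeq2 1.42.0 and limma on log2(TPM + 1) or log2(TPM + 0.1) as alternatives. Peak heights on the log2 scale, centred on each sample's median, were tested in limma 3.58.1 over all loci in 4 samples, and coverage by exact permutation over samples. The scripts were tested on simulated data, which does not show that a peak locus not called is unchanged. Tags came to the same library total in every sample of a factor, 40000000 for HNF4α and 20000000 for C/EBPα, so depth does not differ between them as deposited. For RNA-seq the samples are separate mice, and for the other assays p-values measure the spread between samples that the labels call replicates.

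The members and gene lists were chosen with earlier results of these data known. Named were all members, up to 4 called genes per list with the largest fold change (mean of at least 1 CPM), isozymes, listed regulators, the 3 genes most like each member, the nearest, highest and called loci, and the 2 highest interactions per diet. Some genes of the glycolysis list are not reported here. Gbe1, Eno1, Pgm2, single cell type markers and the C/EBPα loci that are neither nearest, highest nor called in limma were named after their values were seen. Windows were 20 kb on either side of a gene. Replicate numbers did not pair mice (correlations of same-numbered deviations from −0.11 to 0.22).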

Additional observations from a re-analysis of the deposited data

Results flagged for a closer look

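Among 72 groups of 5 mice (36 named genes on each diet), 3 had 1 mouse that stood apart from the rest of its group by Dixon's criterion, where chance gives about 1 in 20. For Pkm, LD replicate 2 had 61.96 CPM and the other LD mice 38.2 to 42.0 CPM. For Mpc1, LD replicate 5 had 214.4 CPM and the others 194.6 to 200.1 CPM. For Hnf4a, LD replicate 4 had 458.9 CPM and the others 372 to 397 CPM. None of the 8 members had such a mouse on either diet.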

How the results depend on the processing

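The calls of Pklr and G6pc and the absence of a member called higher on LD held under DESeq2, DESeq2's size factors, both other count filters, TPM with either pseudocount, a minimum-fold test (glmTreat), the replicate block and each mouse left out (2 to 3 members called higher on CD, the extra one Pck1). Over all genes, calls higher on LD were 1859, and 919 in glmTreat, and calls higher on CD were 1498, but 740 in limma on log2(TPM + 1), 778 on log2(TPM + 0.1) and 459 in glmTreat. Limma on log2(TPM + 1) gave 2227 calls higher on LD beside the 740, with both scale and test changed. In the 5 lists, 13 genes were called higher on LD (6 in glmTreat) and 8 higher on CD (4 and 4 on the TPM scales, 2 in glmTreat, 5 to 9 with a mouse left out, the 5 without LD replicate 2 or LD replicate 5). The replicate block gave 1818 and 1355 calls over all genes and changed no member's call. The Fbp1 RNA difference turned sign without LD replicate 4 or CD replicate 5 (−0.0058 to 0.047 over single mice left out).

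H3K27ac members with LD below CD numbered 3 to 4 in every setting (beside 5.55% to 11.1% of windows), and those with LD above CD 2 with 50 kb on either side (beside 26.9%) and 0 to 1 with a sample left out (beside 26.3% to 30.5%). In edgeR on tags, 2 HNF4α member loci were called higher on CD and 2 C/EBPα member loci higher on LD, and with loci found in 3 or more samples (a missing height set to its sample's lowest) 0 C/EBPα member loci were called higher on CD, as were 0 of all 21389 loci in either direction (4133 at an unadjusted p under 0.05). With a sample left out the member count was 0 to 1 (the 1 being the G6pc locus 16576 bp upstream, without CD replicate 1). That G6pc locus was the third called beside the pair in Gys2 without centring and under the replicate block (3 each). Without centring, the median of all loci moved from −0.04 to 0.15 for HNF4α and from −0.10 to −0.41 for C/EBPα. Signs turned for the HNF4α locus 6164 bp upstream of Pygl (0.15 uncentred, 0.093 quantile normalised, 0.00064 on tags, −0.18 to 0.095 with a sample left out). For C/EBPα they turned 374 bp from Pklr (−0.21 to 0.039), 10906 bp upstream of Khk (−0.14 uncentred, −0.065 to 0.39), 244 bp from Khk (−0.38 to 0.16), 15853 bp upstream of Slc2a2 (−0.30 uncentred, −0.10 with loci in 3 or more samples, −0.15 to 0.16) and 292 bp upstream of Pck1 (0.030 quantile normalised, −0.40 to 0.11). Shared member interactions made up 59.5%, 100% at a score of at least 10 and 82.4% when an other end within 10 kb counted as the same. The cause was not tested for any of these. The factor calls rest on 2 samples per factor and diet.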
